A study of Mus musculus with 18 samples.

Results

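The 35 genes described here encode the 2 large families of splicing regulators, the SR proteins and the heterogeneous nuclear ribonucleoproteins (hnRNPs), together with the CLK kinases that act on SR proteins. They were taken by gene name (Srsf followed by a number, names starting with Hnrnp, and Clk1 to Clk4) from the 31053 genes of a count table of mouse hepatocytes, and by the same Ensembl identifiers from a second table of the same genes. The naming rule itself uses no measured value. There were 11 SR proteins (Srsf1 to Srsf7 and Srsf9 to Srsf12), 4 CLK kinases and 20 hnRNPs. The hnRNPs are ordered below as the A/B and D group (Hnrnpa0, Hnrnpa1, Hnrnpa2b1, Hnrnpa3, Hnrnpab, Hnrnpd and Hnrnpdl), the F/H group (Hnrnpf, Hnrnph1, Hnrnph2 and Hnrnph3), the U group (Hnrnpu, Hnrnpul1 and Hnrnpul2), and Hnrnpc, Hnrnpk, Hnrnpl, Hnrnpll, Hnrnpm and Hnrnpr.

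The study asked how regeneration differs between old and young livers and whether loss of Smo, the transmembrane transducer of the Hedgehog pathway, in young hepatocytes resembles aging. The mRNA of hepatocytes, isolated by perfusion of the liver with collagenase, was sequenced in 18 libraries. The first table held 4 groups of 3 libraries from C57BL/6J males: old hepatocytes (24 months) at 48 h after removal of 70% of the liver by partial hepatectomy (PH) and old hepatocytes without PH, and young hepatocytes (3 months) at 48 h after PH and without PH. The young mice of this table came from Jackson Laboratories and the old ones from the NIA aged rodent colonies. Source and age can therefore not be told apart. The second table held hepatocytes of 3-month-old males (2 to 3 months in the study's methods) with floxed Smo alleles on a C57BL/6J background. In Smo (−) mice these alleles were deleted by an AAV8 virus that carried Cre recombinase under the TBG promoter, which acts in hepatocytes, and Smo (+) mice carried the same floxed alleles and received the AAV8-TBG virus with luciferase. PH followed 7 days after the virus. There were 2 libraries each of Smo (−) at 48 h after PH and Smo (−) without PH, and 1 library each of Smo (+) at 48 h after PH and Smo (+) without PH, so any difference between the 2 Smo (+) libraries has no replicate check. Purity of the cells was judged by light microscopy.

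SR proteins bind exonic enhancer sequences through RNA recognition motifs, and their arginine- and serine-rich tails recruit the splicing machinery, which favours inclusion of exons. hnRNPs coat nascent transcripts and often act in the opposite direction by binding silencer sequences, and many of them also take part in export, stability and translation of mRNA. CLK kinases in the nucleus phosphorylate the tails of SR proteins and so release them from nuclear speckles. Many of these genes adjust their own output by splicing their transcripts to forms that are kept in the nucleus or removed by nonsense-mediated decay, and splicing regulators are among the genes known to change when resting hepatocytes re-enter the cell cycle.

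The old and young libraries had 17089525 to 36646939 reads in genes, and the Smo-floxed libraries 16835686 to 19151731. All 8 hepatocyte markers were detected in each library. Levels are given as counts per 1000000 reads in genes that passed the filter on low counts, scaled between libraries by TMM factors (CPM). A summed level of 6 proliferation markers was 436 to 571 CPM in old PH, 3.77 to 13.6 in old, 385 to 514 in young PH and 5.04 to 8.77 in young hepatocytes. Old and young libraries differed in composition. Reads assigned to no gene, which can lie in introns as well as between genes, made up 3.11% to 3.74% in old PH and 2.03% to 3.07% in old libraries. They made up 25.2% to 28.9% in young PH and 26.0% to 33.9% in young libraries. The nuclear transcript Malat1 was at 127 to 165 reads per 1000000 in old PH and 18.2 to 89.7 in old libraries. It was at 3487 to 3906 in young PH and 3634 to 6004 in young libraries. Age and this difference between libraries cannot be told apart. All 6 markers of Kupffer cells and macrophages were detected in the old and in the young libraries without PH. Their summed level was 49.1, 309.4 and 319.7 CPM in old libraries, against 34 to 52.3 CPM in young libraries. Old replicate 1, at 49.1 CPM, lay within the young range. The Smo (+) library without PH also stood apart, with 22.5% of its reads in mitochondrial genes against 3.32% to 6.85% in the other 5 Smo-floxed libraries, and with Malat1 at 3546 reads per 1000000 against 123 to 682. The deleted gene was measured first: Smo had 30 and 26 reads in Smo (−) PH and 25 and 54 in Smo (−) libraries, against 220 in Smo (+) PH and 78 in Smo (+). In bulk samples such as these, fewer cells of a type and less RNA per cell cannot be told apart.

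In the GRCm38 genome Clk1 lies at chr1:58410189-58424066, minus strand, Srsf5 at chr12:80945504-80950507, plus strand, Srsf3 at chr17:29032628-29043373, plus strand, Hnrnph1 at chr11:50376990-50386528, plus strand, Hnrnpu at chr1:178321108-178337797, minus strand and Hnrnpa1 at chr15:103240432-103246692, plus strand. All counts were made over exons of the whole gene. In the GENCODE M21 annotation, 26 of the 35 members have a transcript model with a retained intron and 23 have a model marked for nonsense-mediated decay, against 41.5% and 20.8% of 21974 protein-coding genes. A count over a gene does not separate these forms from the coding mRNA. Exons of 11 members overlap those of another counted gene, over more than 10% of their exonic bases for Hnrnpab, Clk3, Srsf2 and Hnrnpm. Hnrnpa1 and other hnRNPs also have processed pseudogene copies that could take some of their reads, so the levels of these genes are less certain.

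RefSeq promoter windows of GRCm38.p6, reaching from 250 bases before to 50 bases after the start, were found for 32 of the 35 members, as 44 windows. Those of Hnrnpa1, Srsf3 and Srsf5 are printed because the first 2 genes rose after PH while Srsf5 fell in young and Smo (−) hepatocytes. Capitals mark each match on either strand to the CCAAT box, the GC box GGGCGG, the ETS motif CCGGAAG, the TATA box TATAAA, the E-box CACGTG, and the E2F motifs TTTCCCGC or TTTGGCGC. Matches that touch or overlap run together.
Hnrnpa1, chr15:103240147-103240446, plus strand: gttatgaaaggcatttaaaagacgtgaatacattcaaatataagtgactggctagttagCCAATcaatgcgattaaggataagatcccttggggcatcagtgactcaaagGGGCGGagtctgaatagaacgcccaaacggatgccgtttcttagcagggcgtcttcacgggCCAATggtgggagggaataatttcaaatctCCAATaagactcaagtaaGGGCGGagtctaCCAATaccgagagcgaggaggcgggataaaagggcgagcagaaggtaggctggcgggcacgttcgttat
Srsf3, chr17:29032410-29032709, plus strand: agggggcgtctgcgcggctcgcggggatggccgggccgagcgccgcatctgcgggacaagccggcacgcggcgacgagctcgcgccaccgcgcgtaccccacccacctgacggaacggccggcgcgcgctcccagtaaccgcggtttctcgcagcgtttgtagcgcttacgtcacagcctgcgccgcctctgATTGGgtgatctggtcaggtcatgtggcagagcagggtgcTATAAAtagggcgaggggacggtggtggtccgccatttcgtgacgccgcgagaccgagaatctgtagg
Srsf5, chr12:80945249-80945548, plus strand: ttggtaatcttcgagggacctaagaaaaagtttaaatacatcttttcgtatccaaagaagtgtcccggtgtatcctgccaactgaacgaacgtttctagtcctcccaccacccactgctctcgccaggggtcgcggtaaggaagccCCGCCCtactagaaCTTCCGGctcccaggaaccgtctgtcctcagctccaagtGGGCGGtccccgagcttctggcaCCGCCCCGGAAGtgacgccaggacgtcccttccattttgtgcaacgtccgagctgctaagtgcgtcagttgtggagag
The Hnrnpa1 window held 4 matches to CCAAT and 2 to the GC box, that of Srsf3 held 1 match to CCAAT and 1 to TATAAA, and that of Srsf5 held 2 matches to the ETS motif and 3 to the GC box. Over all member windows, 84.1% held a GC box, 50.0% CCAAT, 25% the ETS motif, 13.6% CACGTG, 9.09% an E2F motif and 9.09% TATAAA. Among all 32851 windows of the same length the shares were 35.7%, 37.4%, 8.86%, 7.15%, 1.57% and 13.6%. Some members have several windows, in part overlapping, and so count more than once in these shares. By gene, 27 of the 32 members held a GC box in any window, 18 CCAAT and 7 the ETS motif. CACGTG was held by 6, an E2F motif by 4 and TATAAA by 4. Counts by gene were not made over all windows. Member windows were rich in CpG, with a median of 30.5 CpG dinucleotides against 7 over all windows, and a median GC content of 67.8% against 52.7%. These matches describe the letters in the windows and no binding was measured.

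Srsf12 was the only member left out by the filter on low counts, with at most 5 reads in any old or young library and at most 2 in any Smo-floxed library, and the other 34 members were tested in both tables. Levels of different genes were compared as CPM per kilobase of exon, with the length taken over all annotated exons of a gene, retained intron models included. In young hepatocytes Srsf5, first described in regenerating rat liver, was highest with 28.2 ± 5.77 CPM per kilobase (SD, n = 3), followed by Hnrnpl with 24.9 ± 0.83 and Srsf2 with 21.7 ± 3.84, and the spread of these neighbours overlapped. Hnrnph3, Hnrnpll and Hnrnpr were the lowest tested members there by this measure, at 2.22, 2.03 and 0.967 CPM per kilobase. This order depends on the length used, which was 11677 bases for Hnrnpll and 22199 for Hnrnpr. Without it Hnrnpll had 23.8 and Hnrnpr 21.5 CPM, above Srsf7 with 9.1 and Srsf9 with 8.5 CPM. In old hepatocytes the leading members were Hnrnpa0 with 33.8 ± 2.75, Hnrnpa2b1 with 32.6 ± 2.64 and Hnrnpf with 31.1 ± 0.77 CPM per kilobase, again within their spread of each other. In old PH hepatocytes Hnrnpa2b1 led with 73.5 ± 13.0 CPM per kilobase, ahead of Hnrnpab with 51.8 ± 3.36. Clk2 and Hnrnpr were lowest by this measure, with 1.42 and 1.24 CPM per kilobase, and had 7.53 and 27.4 CPM without the length.

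The summed level of all members was highest in old regenerating hepatocytes, at 3625 ± 307 CPM (SD, n = 3 in each of these groups), against 2099 ± 33.6 in old hepatocytes. It was 2039 ± 60.5 CPM in young regenerating hepatocytes, against 1758 ± 106 in young hepatocytes. These sums depend on the TMM scaling. As a share of all reads in genes, without it, members made up 0.353% to 0.408% in old PH and 0.149% to 0.197% in old libraries. The share was 0.222% to 0.249% in young PH and 0.165% to 0.181% in young libraries. By this share young PH libraries lay above old ones, whereas their summed CPM did not. The 4 CLK kinases did not follow the order of the summed levels. Their sum was 99.98 ± 3.61 CPM in old PH and 80.7 ± 26.5 in old hepatocytes, against 120.3 ± 1.29 in young PH and 173 ± 28 in young hepatocytes. The A/B and D hnRNPs reached 1233 ± 144 CPM in old PH and 595 ± 35.7 in old hepatocytes, against 409 ± 17.5 in young PH and 269.9 ± 13.6 in young hepatocytes.

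**Figure D1:**
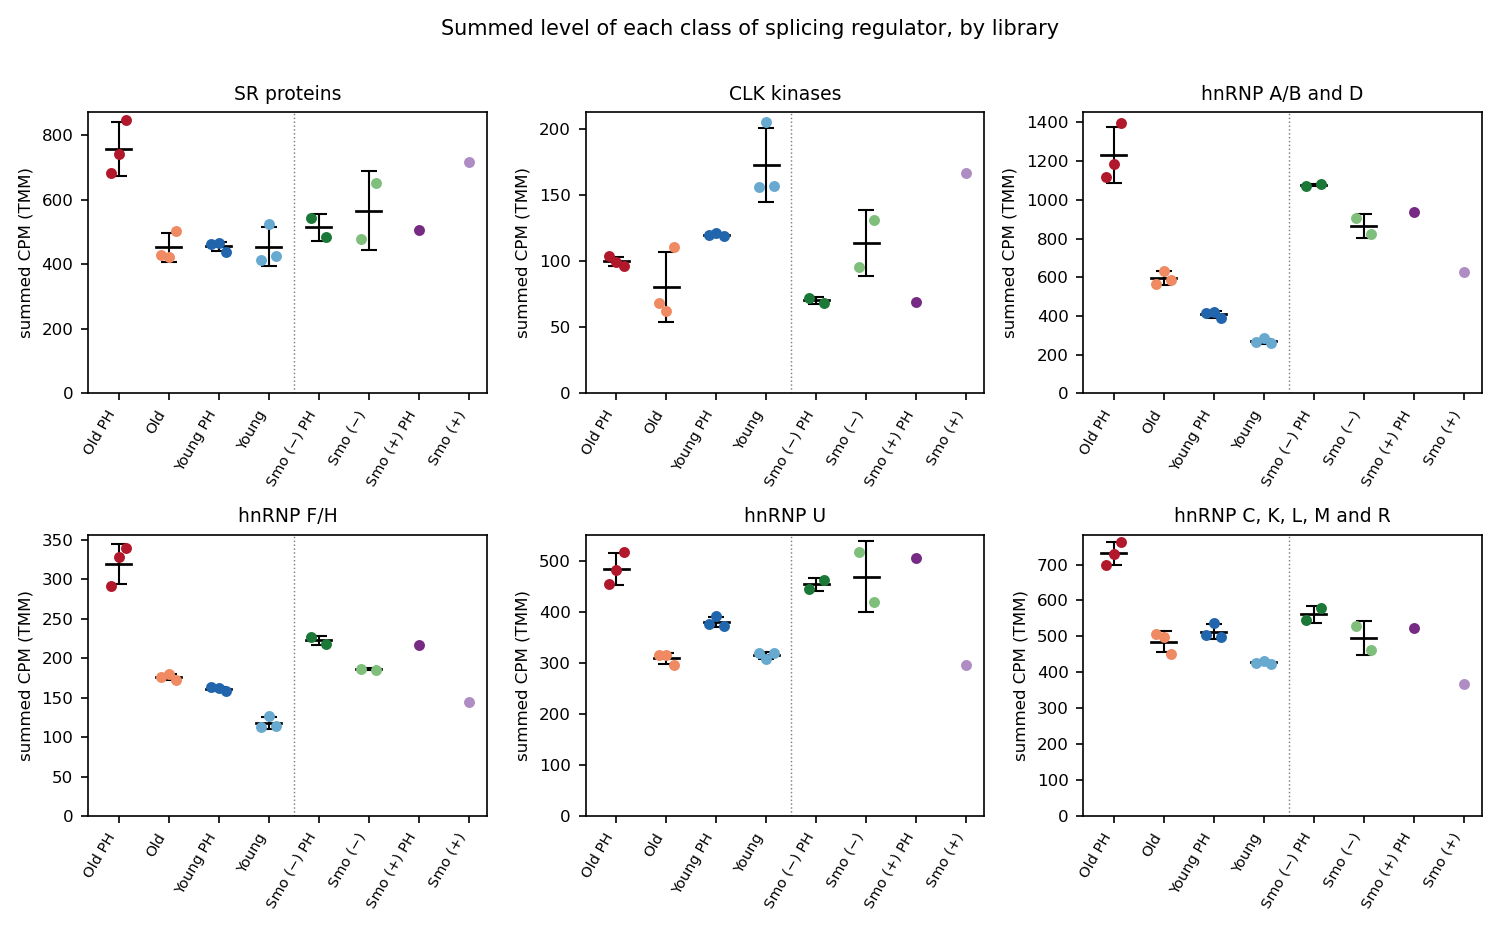
Summed CPM of the 6 classes of splicing regulators in each library, by group. Points are libraries, lines are group means, bars are SD where a group has 2 or 3 libraries, the axes are linear from 0, and the dotted line parts the 2 tables, which were normalised separately. The A/B and D hnRNPs are at 1119 to 1395 CPM in old PH and 564 to 634 CPM in old libraries, whereas the CLK sum is at its highest in the first table in young libraries, at 156 to 205 CPM.

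The first question was how the splicing regulators changed at 48 h after PH in young hepatocytes. Of 34 members tested, 16 rose, 2 fell and 16 did not pass the test (edgeR quasi-likelihood, Benjamini-Hochberg adjusted p below 0.05 over 14554 genes). Over all genes tested 34.2% were called, 17.8% higher and 16.4% lower. The median log2 fold change was 0.32 over the members and −0.01 over all genes. By class, the calls were 6 of 7 A/B and D hnRNPs, 3 of 4 F/H hnRNPs, 1 of 3 in the U group, 1 of 6 among the other hnRNPs and 5 of 10 SR proteins higher, and 1 SR protein and 1 of 4 CLK kinases lower. In the same comparison 3 of 6 endothelial markers were lower, with a summed level of 78.6 to 94.5 CPM in young PH, against 116 to 188 CPM in young libraries, and their part in the result was not tested.

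Hnrnpab, which binds RNA and single-stranded DNA, had 54, 60.8 and 53.2 CPM in young PH libraries, against 34.3, 24.3 and 28.1 CPM in young libraries (log2 fold change 0.96 ± 0.13 (SE), adjusted p = 8.21e-05). Hnrnpa1, a repressor of exon inclusion that binds exonic silencers, had 54.1, 52.6 and 48.2 CPM in young PH, against 24.4, 25.8 and 21.5 in young libraries, a 2.16-fold rise (log2 fold change 1.11 ± 0.17 (SE), adjusted p = 0.000215). Both genes were picked from calls whose groups did not overlap. By that choice the lowest PH library was above the highest library without PH. Hnrnpa3, its close relative, had 79.1, 84.3 and 77.8 CPM in young PH, against 51.7, 47.1 and 49 in young libraries (log2 fold change 0.71 ± 0.13 (SE), adjusted p = 0.000741). Srsf10, which represses splicing when dephosphorylated, had 29.7, 28.8 and 28.9 CPM in young PH, against 16.6, 22.1 and 19.6 in young libraries (log2 fold change 0.58 ± 0.12 (SE), adjusted p = 0.00217). Smaller rises were seen for Hnrnpul1, a relative of hnRNP U (0.49, adjusted p = 0.00775) and for the G-run binding Hnrnph2 (0.47, adjusted p = 0.00784).

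In young hepatocytes 2 members fell, Srsf5 to 0.509 times and Clk1 to 0.542 times its level without PH. Srsf5 had 55.7, 61.7 and 54.1 CPM in young PH, against 100.3, 139 and 97.9 CPM in young libraries (log2 fold change −0.98 ± 0.14 (SE), adjusted p = 0.000151). Clk1, whose own transcript is known for retained introns, had 39.6, 40.4 and 34 CPM in young PH, against 63.1, 79.6 and 67.7 CPM in young libraries (log2 fold change −0.88 ± 0.23 (SE), adjusted p = 0.00793). Neither gene's groups overlapped. The other CLK kinases did not pass the test: Clk2, a kinase induced by feeding in mouse liver, had 19.7, 23.8 and 26.1 CPM in young PH, against 28.9, 34.6 and 23.4 in young libraries (−0.32, adjusted p = 0.177). Clk3 had 33.1, 29.4 and 30.6 CPM in young PH, against 34.1, 49.3 and 36.5 in young libraries (−0.37, adjusted p = 0.0871). Clk4, the kinase nearest in sequence to Clk1, had 27.5, 28.2 and 28.7 CPM in young PH, against 29.9, 41.7 and 29.7 in young libraries (−0.26, adjusted p = 0.309). Of the 18 calls in young hepatocytes, 12 were kept under each of 16 alternative settings, Srsf5 and Clk1 among them. Srsf3, Srsf9, Hnrnpa0, Hnrnpd, Hnrnpdl and Hnrnph1 lost their call under at least 2 settings.

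In old hepatocytes the rise after PH took in most members. Of 34 tested, 28 rose, none fell and 6 did not pass the test with edgeR, and at an unadjusted p below 0.05 there was also no lower member with edgeR, DESeq2 or limma-voom. Here over all genes 37.6% were called, 22.5% higher and 15.1% lower. The median log2 fold change was 0.68 over the members and 0.08 over all genes. The members that rose were 6 of 7 A/B and D hnRNPs, 4 of 4 F/H hnRNPs, 3 of 3 in the U group, 6 of 6 of the other hnRNPs, 8 of 10 SR proteins and 1 of 4 CLK kinases. In 27 of the 28 the groups did not overlap. The share without overlap among all called genes was not counted, so whether this is particular to the members is not known. With upper-quartile scaling, which moved the median of all genes by −0.18 and the share of higher genes among all calls to 41.0%, against 59.8% with the main scaling, 20 members were called. Markers of other cells moved as well. Kupffer cell markers summed to 17 to 53.5 CPM in old PH, against 49.1 to 319.7 CPM in old libraries (5 of 6 lower), endothelial markers to 29.7 to 39.7 CPM, against 59.8 to 166 CPM (6 of 6 lower), and of the 5 nuclear RNAs Malat1 and Kcnq1ot1 were higher. Their part in the members' rise was not tested.

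Hnrnph1, which binds runs of G in exons and introns, had 95.9, 119 and 141 CPM in old PH libraries, against 28.7, 29 and 37.3 CPM in old libraries, a 3.75-fold rise (log2 fold change 1.91 ± 0.19 (SE), adjusted p = 5.93e-06). Hnrnpa1 had 112, 139 and 158 CPM in old PH, against 31.5, 47.3 and 50.0 in old libraries, a 3.17-fold rise (log2 fold change 1.66 ± 0.17 (SE), adjusted p = 8.86e-06). Srsf3, the smallest SR protein, which also takes part in mRNA export and is needed for hepatocyte maturation in mice, had 100.4, 114 and 127 CPM in old PH, against 34.3, 51.7 and 47.6 in old libraries, a 2.56-fold rise (log2 fold change 1.35 ± 0.16 (SE), adjusted p = 2.19e-05). In each of these genes, picked from calls without overlap between groups, the lowest PH library stood above the highest library without PH. Srsf10 had 48.9, 50.3 and 53 CPM in old PH, against 20.3, 19.8 and 24.8 in old libraries (log2 fold change 1.23 ± 0.12 (SE), adjusted p = 7.05e-06). Hnrnpa3 had 233, 247 and 278 CPM in old PH, against 99.9, 134 and 108 in old libraries (log2 fold change 1.15 ± 0.13 (SE), adjusted p = 1.67e-05). Hnrnpu, a scaffold protein that binds both chromatin and RNA, had 264, 276 and 311 CPM in old PH, against 154, 153 and 147 in old libraries (log2 fold change 0.91 ± 0.12 (SE), adjusted p = 5.16e-05). The calls of 19 of the 28 held under each of 16 alternatives. Those of Clk4, Srsf2, Srsf9, Hnrnpa0, Hnrnpf, Hnrnph2, Hnrnpr, Hnrnpul1 and Hnrnpul2 did not.

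The members that fell in young hepatocytes did not pass the test in old ones. Srsf5 had 115, 131 and 136 CPM in old PH, against 122, 109.9 and 128 in old libraries (0.08, adjusted p = 0.67), and these ranges overlapped. Clk1 had 45.1, 44.4 and 41.3 CPM in old PH, against 24.6, 25.5 and 52.6 in old libraries (0.35, adjusted p = 0.249). Clk4 passed the test, with 32.6, 27.9 and 27.8 CPM in old PH, against 17.5, 15 and 27.1 in old libraries (0.56, adjusted p = 0.0348). For both kinases the 3rd old library without PH was higher than the other 2. It also had the highest Malat1 of the 3, at 89.7 reads per 1000000 against 18.2 and 26.9, and the part of this in the result was not tested. Without that library, Clk1 was called higher in old PH (0.74, adjusted p = 0.00161). Clk2 had 7.08, 9.02 and 6.51 CPM in old PH, against 8.32, 7.80 and 10.6 in old libraries (−0.24, adjusted p = 0.342), and Clk3 had 19.1, 18 and 21.2 CPM, against 17.9, 14.3 and 20.9 (0.13, adjusted p = 0.542).

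**Figure D2:**
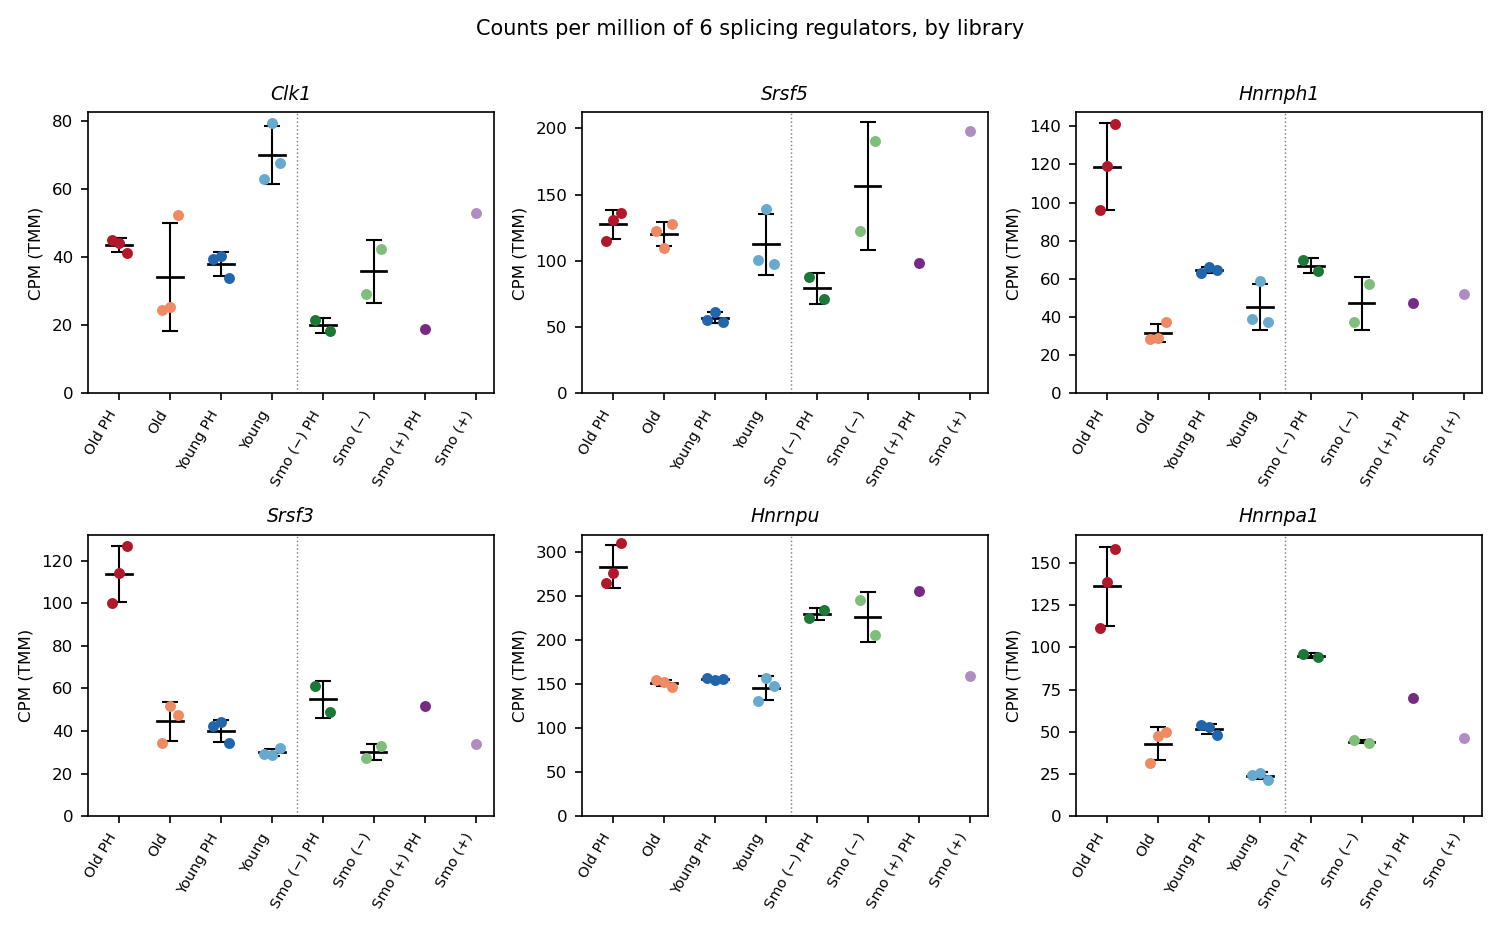
Level in CPM of Clk1, Srsf5, Hnrnph1, Srsf3, Hnrnpu and Hnrnpa1 in each library of the 8 groups. Points are libraries, lines are group means, bars are SD where a group has 2 or 3 libraries, the axes are linear from 0, and the dotted line parts the 2 separately normalised tables. Srsf5 sits at 54.1 to 61.7 CPM in young PH and at 115 to 136 CPM in old PH libraries, while Hnrnpa1 is higher after PH in young, old and Smo (−) hepatocytes.

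Whether the responses to PH differed with age was tested as the difference of both log2 fold changes, old minus young, in the same fit. This difference was positive in 29 of 34 members, and 5 members passed the test, each with the more positive response in old hepatocytes. Over all genes 3.26% were called, 2.27% higher and 0.983% lower. The median difference was 0.50 over the members and 0.08 over all genes. Of 6 Kupffer cell markers, 1 passed the same test, with the more negative response in old hepatocytes, and the median of the 6 was −2.95. The part of these cells in the members' difference was not tested. Hnrnph1 showed the largest of the 5 (1.39 ± 0.26, adjusted p = 0.0191), with 63.1, 66.5 and 64.7 CPM in young PH, against 39.1, 59.2 and 37.6 CPM in young libraries, where the old groups were at the levels given above. Hnrnph3, a shorter relative of Hnrnph1, differed by 1.08 ± 0.28, adjusted p = 0.0496, with 8.69, 12.9 and 14.1 CPM in old PH, against 5.33, 6.74 and 6.42 in old libraries, and 6.43, 6.33 and 6.32 CPM in young PH, against 6.78, 8.30 and 5.93 in young libraries. Its level in young libraries overlapped with that in young PH.

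Srsf5 differed by 1.06 ± 0.20, adjusted p = 0.0198, with log2 fold changes of 0.08 in old and −0.98 in young hepatocytes. Srsf3 differed by 0.93 ± 0.22, adjusted p = 0.0377, with 42.1, 44.1 and 34.3 CPM in young PH, against 29.1, 28.9 and 31.8 in young libraries. Hnrnpu differed by 0.81 ± 0.16, adjusted p = 0.0225. Its young groups overlapped, at 157, 155 and 156 CPM in young PH and 131, 157 and 148 CPM in young libraries, whereas each old PH library was above each old library. Clk1 had a difference of 1.23 that missed the threshold with edgeR (adjusted p = 0.0541) and passed it with DESeq2 (0.0172), limma-voom (0.041) and with no low-count filter (0.0323). None of the 5 calls held under each of the 21 alternatives. Those of Hnrnph1 and Srsf5 were lost only when young PH replicate 2 was left out (adjusted p = 0.0579 and 0.0544) and, for Srsf5, also without young PH replicate 3 (0.0525), whereas Hnrnpu lost its call in 6, Srsf3 in 11 and Hnrnph3 in 19 settings. Leaving out 1 library gave 3 called members without young replicate 1 or 2 or old PH replicate 2 or 3, 2 without young replicate 3 or young PH replicate 1, 1 without young PH replicate 3, and 0 without young PH replicate 2, where 18 members had an unadjusted p below 0.05. Without old replicate 3, 9 members were called, among them Clk1 (1.64, adjusted p = 0.00154), Clk4 (1.08, 0.0233), Srsf2 (1.13, 0.0275) and Srsf11 (1.12, 0.0115). Upper-quartile scaling moved the median of all genes by −0.17 and the share of higher genes among all calls to 37.8%, against 69.8%, and 2 members were then called, Hnrnph1 and Srsf5. That share was 56.4% with DESeq2, which called 9 members, and 59.2% with the gene-length correction, which called 2.

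**Figure D3:**
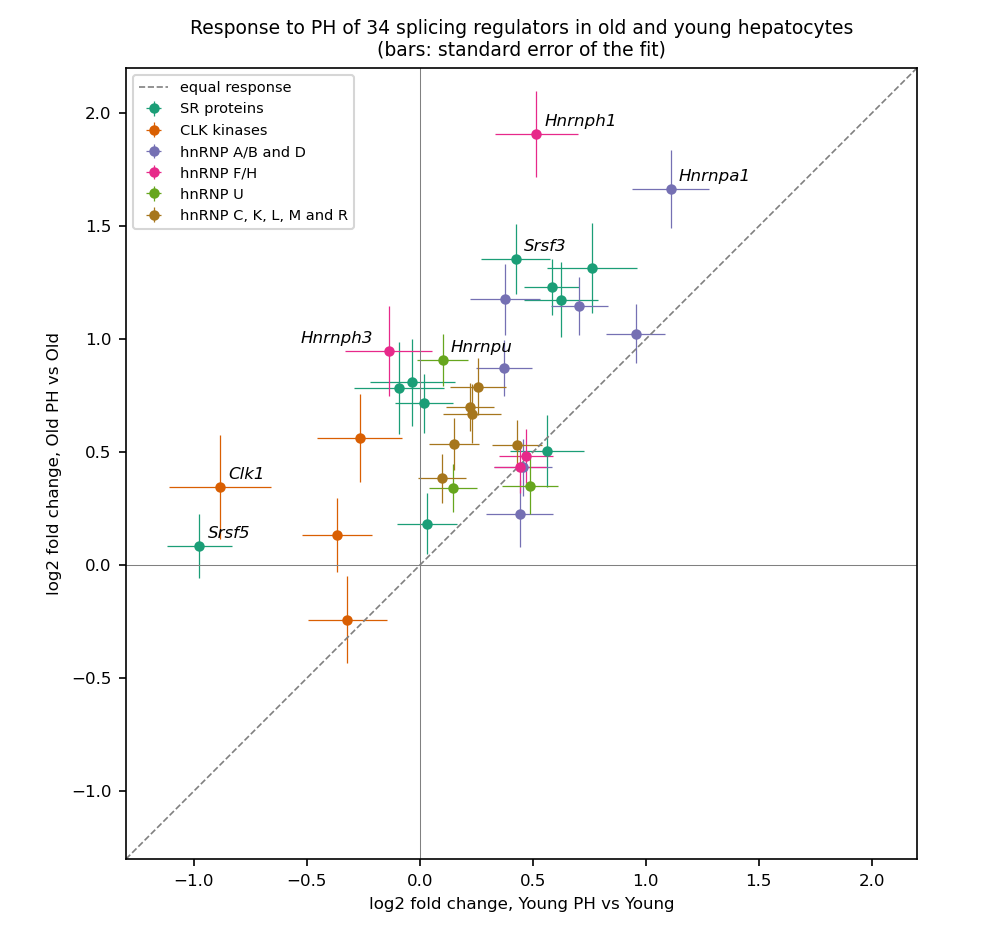
Log2 fold change at 48 h after PH in old hepatocytes (vertical axis) against that in young hepatocytes (horizontal axis) for the 34 tested members, coloured by class. Bars are SE and the dashed line marks equal change. Most members lie above the line, with Hnrnph1 at 1.91 in old and 0.52 in young hepatocytes and Srsf5 at 0.08 in old and −0.98 in young.

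Both responses were set side by side by their calls, which share no library. Of the 28 members that rose in old hepatocytes, 15 also rose in young ones (53.6%), and these were 93.8% of the 16 that rose in young hepatocytes. Over all 34 members, 47.1% rose in young and 82.4% in old hepatocytes, so the 2 shares of overlap lie not far above these. The overlap over all genes was not counted. Hnrnpd, which marks AU-rich mRNAs for decay, was the only member that rose in young hepatocytes and was not called in old ones, and Srsf5 and Clk1 were called lower in young hepatocytes only.

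Age was then compared without PH. In old hepatocytes, 16 of 34 members were higher than in young ones, 9 were lower and 9 did not pass the test, and over all genes 63% were called, 29.3% higher and 33.7% lower. The median log2 fold change was 0.15 over the members and −0.05 over all genes. The classes went different ways. All 7 A/B and D hnRNPs were higher in old hepatocytes, and the 4 CLK kinases were lower. The smallest of these differences, that of Hnrnpdl (0.30, adjusted p = 0.0479), lost its call in 6 of 16 alternatives, among them the replicate block (0.063), and its old and young libraries overlapped. In all, 19 of the 25 calls held under each of 16 alternatives. The F/H group had 2 higher and 1 lower, the U group 1 and 1, the other hnRNPs 3 and 1, and the 10 SR proteins 3 higher and 2 lower. Upper-quartile scaling moved the median of all genes by 0.14, and a correction for gene length, which moved it by 0.04, gave 20 members higher and 5 lower.

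Hnrnpa0, which binds AU-rich mRNAs, had 99, 87.8 and 85 CPM in old libraries, against 27.9, 20.9 and 23.6 CPM in young libraries, a 3.76-fold difference (log2 fold change 1.91 ± 0.13 (SE), adjusted p = 6.78e-08). Srsf9 had 33.1, 21.8 and 23.2 CPM in old libraries, against 8.39, 8.96 and 8.19 in young ones (log2 fold change 1.61 ± 0.17 (SE), adjusted p = 2.16e-06). Hnrnpm had 61.5, 73.8 and 61.2 CPM in old libraries, against 29.8, 28.7 and 30.2 in young ones (log2 fold change 1.15 ± 0.11 (SE), adjusted p = 9.3e-07). These genes were picked from calls without overlap between groups, so their old and young ranges are apart by that choice. Hnrnpab (1.3), Hnrnph2 (1.19) and Hnrnpa3 (1.21) were also among the 6 members with the smallest adjusted p in this direction, between 1.92e-06 and 2.75e-06.

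Of the kinases, Clk2 had 8.32, 7.80 and 10.6 CPM in old libraries, against 28.9, 34.6 and 23.4 CPM in young libraries (log2 fold change −1.70 ± 0.19 (SE), adjusted p = 3.69e-06). Clk3 had 17.9, 14.3 and 20.9 CPM in old libraries, against 34.1, 49.3 and 36.5 in young ones (−1.18, adjusted p = 2.85e-05). In both, every old library was below every young one. Clk1 differed by −1.03 (adjusted p = 0.00138) and Clk4 by −0.76 (adjusted p = 0.00347). Srsf2, a nuclear speckle SR protein, had 20.8, 27.2 and 40.3 CPM in old libraries, against 55.8, 77.1 and 59.5 in young ones (−1.12, adjusted p = 0.000307). As for Clk1 and Clk4, the 3rd old library was the highest of its group. Hnrnpl, which binds CA repeats, had 97.7, 97.9 and 82.1 CPM in old libraries, against 144, 153 and 147 in young ones (−0.68, adjusted p = 0.000151). Hnrnpul1 had 74.9, 67.2 and 67.8 CPM in old libraries, against 140.0, 105 and 130.1 in young ones (−0.84, adjusted p = 5.99e-05). The correction for gene length ended the calls of Clk1 (adjusted p = 0.0866), Hnrnpul1 (0.227), Srsf11 (0.283) and Hnrnph1 (0.213).

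At 48 h after PH, 24 of 34 members were higher in old than in young hepatocytes, 4 were lower and 6 did not pass the test, where over all genes 62.1% were called, 29.7% higher and 32.4% lower. The members' median log2 fold change was 0.82, and that of all genes was −0.07. Those higher in old PH were 7 of 7 A/B and D hnRNPs, 4 of 4 F/H hnRNPs, 2 of 3 in the U group, 4 of 6 other hnRNPs and 7 of 10 SR proteins. Those lower were Clk2, Clk3, Hnrnpul1 and Hnrnpl. Hnrnpa2b1, an abundant hnRNP that binds methylated adenosine and sorts small RNAs, had 416, 456 and 580.0 CPM in old PH libraries, against 129, 129.8 and 128 CPM in young PH libraries (log2 fold change 1.91 ± 0.16 (SE), adjusted p = 4.37e-07). Hnrnpm had 99.2, 107 and 113 CPM in old PH, against 32.7, 34.5 and 36.2 in young PH (log2 fold change 1.62 ± 0.11 (SE), adjusted p = 7.87e-08). Hnrnpul2 had 106, 119.5 and 111 CPM in old PH, against 48.8, 49.5 and 52.3 in young PH (log2 fold change 1.16 ± 0.11 (SE), adjusted p = 9.38e-07). These genes were picked from calls without overlap between groups. By that choice every old PH library was above every young PH library. Hnrnpa0, Hnrnpa3 and Hnrnpab differed by 1.89, 1.65 and 1.36 on the log2 scale.

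Clk2 was lower in old hepatocytes after PH too, at 7.08, 9.02 and 6.51 CPM in old PH, against 19.7, 23.8 and 26.1 CPM in young PH (log2 fold change −1.62 ± 0.19 (SE), adjusted p = 5.81e-06). Hnrnpul1 differed by −0.97 (adjusted p = 1.65e-05), Clk3 by −0.67 (0.00225) and Hnrnpl by −0.29 (0.0358). The correction for gene length ended the calls of Clk3 (adjusted p = 0.362) and Hnrnpl (0.518). Each of the 16 members higher in old hepatocytes before PH was also higher after it, which is 66.7% of the 24, and the 4 lower after PH were 44.4% of the 9 lower before it. Over all 34 members, 47.1% were higher and 26.5% lower before PH, and 70.6% were higher and 11.8% lower after it. The overlap over all genes was not counted. Hnrnph1 changed sides: it was lower in old than in young hepatocytes without PH (−0.52, adjusted p = 0.0259, a call lost under 6 alternatives) and higher in old PH than in young PH (0.88, adjusted p = 0.000913).

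Members were also described by their transcript models, with no test of a difference between them. The 26 tested members with a retained intron model had a median log2 difference between old and young hepatocytes of 0.04, with 10 higher and 8 lower, and the 8 members with none had a median of 1.11, with 6 higher and 1 lower. Over protein-coding genes the medians were −0.03 for 7660 genes with such a model and 0.14 for 5570 without. Of these, 30.7% and 33.2% were higher, and 32.7% and 26.7% lower. After PH in young hepatocytes, 8 of the 26 members with a retained intron model rose and 2 fell, with a median of 0.15, while 8 of the 8 without one rose, with a median of 0.54. Protein-coding genes showed no such split: 19.5% rose with such a model and 18.5% without, with medians of 0.02 and 0.00. The 8 tested members with no such model were Hnrnpa0, Hnrnpa1, Hnrnpab, Hnrnpf, Hnrnph1, Hnrnph2, Srsf9 and Srsf10. Most of them are A/B and D or F/H hnRNPs, and the part of class in this split was not tested. The calls of Hnrnpa0, Hnrnph1 and Srsf9 in young hepatocytes were lost under some alternative settings. In old hepatocytes after PH, 20 of the 26 members with a retained intron model and 8 of the 8 without one rose, with medians of 0.68 and 0.76. Over protein-coding genes 26.8% and 19.9% rose, with medians of 0.11 and 0.00. All 4 CLK kinases have a retained intron model. Reads assigned to no gene, which can include intron reads, and Malat1 differed between the same age groups. Their part in these values was not tested.

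**Figure D4:**
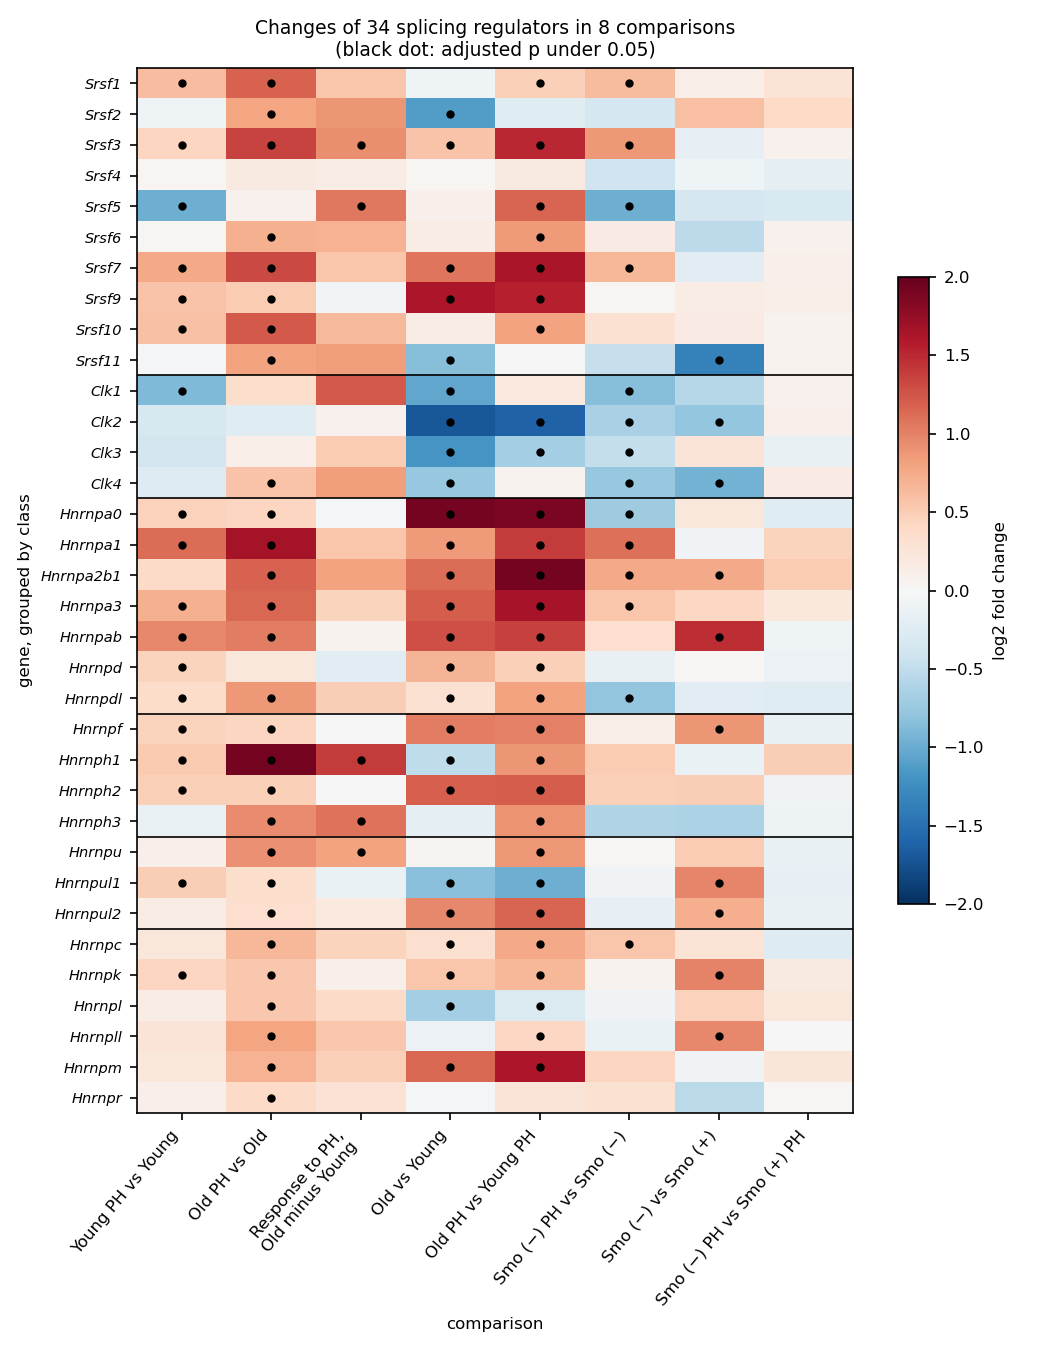
Log2 fold changes of the 34 tested members (lines, ordered by class) in the 8 comparisons (columns). Colour runs from −2 to 2, and a black dot marks adjusted p below 0.05. Old PH against old carries 28 dots, each in the positive colour, the CLK kinases carry 4 dots in the negative colour in old against young hepatocytes, and Smo (−) PH against Smo (+) PH carries none.

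In the Smo-floxed mice the response to PH was tested in Smo (−) hepatocytes, with 2 libraries per time. Of 34 members, 7 rose, 7 fell and 20 did not pass the test, where over 13654 genes 30.2% were called, 16% higher and 14.2% lower. Over the members the median log2 fold change was 0.03, and over all genes 0.01. The calls were 3 higher and 2 lower among the A/B and D hnRNPs, 3 higher and 1 lower among the SR proteins, 1 higher among the other hnRNPs, and 4 of 4 CLK kinases lower. With upper-quartile scaling the members split into 8 higher and 4 lower. Here 6 of 6 Kupffer cell markers and 3 of 6 endothelial markers were higher, with summed levels of 148 and 176 CPM in Smo (−) PH, against 51.2 and 77.2 CPM in Smo (−) libraries, for Kupffer cells and of 275 and 239 CPM, against 98.2 and 204 CPM, for endothelial cells. Malat1 was lower, and the part of these shifts in the result was not tested.

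Hnrnpa1 rose here too, with 96.1 and 94.1 CPM in Smo (−) PH libraries, against 45 and 43.4 CPM in Smo (−) libraries (log2 fold change 1.11 ± 0.15 (SE), adjusted p = 0.000627). Srsf3 had 61 and 48.8 CPM in Smo (−) PH, against 27.3 and 32.8 in Smo (−) libraries (log2 fold change 0.87 ± 0.17 (SE), adjusted p = 0.00546). Hnrnpa2b1 had 436 and 478 CPM in Smo (−) PH, against 288 and 253 in Smo (−) libraries (log2 fold change 0.76 ± 0.18 (SE), adjusted p = 0.0109). These genes were picked from calls in which the libraries of the 2 times did not overlap. Srsf1, the founding SR protein (0.63, adjusted p = 0.0182), Srsf7, which also acts in mRNA export (0.67, 0.0277), Hnrnpc, which binds runs of U (0.56, 0.0275), and Hnrnpa3 (0.55, 0.0343) made up the rest of those that rose.

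Srsf5 fell to 87.6 and 71.2 CPM in Smo (−) PH, against 122 and 190.3 CPM in Smo (−) libraries (log2 fold change −0.98 ± 0.22 (SE), adjusted p = 0.0101). Clk1 had 21.6 and 18.4 CPM in Smo (−) PH, against 29.4 and 42.5 in Smo (−) libraries (log2 fold change −0.84 ± 0.20 (SE), adjusted p = 0.0123). Both had also fallen in young hepatocytes. Clk2 had 12.6 and 12.2 CPM in Smo (−) PH, against 16.3 and 22.6 in Smo (−) libraries (−0.65, adjusted p = 0.0375). Clk3 had 20.0 and 21.8 CPM, against 27.7 and 30.7 (−0.48, 0.047), and Clk4 18.2 and 16.4 CPM, against 22.5 and 35.8 (−0.75, 0.0294). Hnrnpdl and Hnrnpa0, both of the A/B and D group, fell as well (−0.79, adjusted p = 0.00987, and −0.71, 0.0117). The spread here rests on 2 residual degrees of freedom, and only the calls of Hnrnpa1, Srsf3, Srsf5 and Clk1 held under each of 15 alternatives, which gave between 5 and 18 called members. The lowest counts came without Smo (−) PH replicate 2 (5 members) and replicate 1 (7 members).

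In the Smo (+) mice, with 1 library per time and no test, 13 of 34 members had a log2 ratio of PH to no PH of at least 0.5, 7 had one of −0.5 or less and 14 lay between, with a median of 0.15. Such ratios were not counted over all genes, so whether the members differ from other genes here is not known. The ratio was 0.62 for Srsf3, 0.59 for Hnrnpa1 and 1.91 for Hnrnpab, and −1.01 for Srsf5, −1.49 for Clk1, −1.52 for Clk2, −1.85 for Clk4 and −1.87 for Srsf11. The Smo (+) library without PH enters each of these ratios, and its high shares of mitochondrial reads and Malat1 are given above.

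Without PH, 7 of 34 members were higher in Smo (−) than in Smo (+) hepatocytes, 3 were lower and 24 did not pass the test, where over all genes 27.4% were called, 13.9% higher and 13.5% lower. Members had a median log2 fold change of 0.14, and all genes one of 0.00. The comparison rests on 1 Smo (+) library. Hnrnpab had 112 and 110.2 CPM in Smo (−) libraries, against 39.8 CPM in the Smo (+) library (log2 fold change 1.48 ± 0.20 (SE), adjusted p = 0.00341). Hnrnpk, which binds C-rich sequences, had 183 and 140.1 CPM in Smo (−), against 81.2 in Smo (+) (0.99, adjusted p = 0.0146). The 7 higher members, with Hnrnpf (0.88), Hnrnpul1 (0.97), Hnrnpll (0.96), Hnrnpa2b1 (0.76) and Hnrnpul2 (0.72), were all hnRNPs. Those lower were Srsf11, with 48 and 69.2 CPM in Smo (−), against 149 in Smo (+) (−1.34, adjusted p = 0.00603), Clk4, with 22.5 and 35.8 CPM, against 56 (−0.94, 0.0264), and Clk2, with 16.3 and 22.6 CPM, against 33.1 (−0.77, 0.0405). Clk1 (29.4 and 42.5 CPM against 53.1) and Clk3 (27.7 and 30.7 CPM against 24.4) did not pass the test, with adjusted p = 0.104 and 0.355.

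None of these 10 calls held under each of 12 alternatives, and 16 members were called without Smo (−) replicate 2. In a fit with additive terms for virus and time, which uses both Smo (+) libraries, no member was called, no gene was called over the table, and 2 members had an unadjusted p below 0.05. Upper-quartile scaling moved the median of all genes by −0.13, with 39.2% of all calls higher against 50.6%, and split the members into 5 higher and 5 lower. Endothelial markers summed to 98.2 and 204 CPM in Smo (−), against 599.8 CPM in Smo (+), and Kupffer cell markers to 51.2 and 77.2 CPM, against 254.3 CPM, and their part in the result was not tested.

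At 48 h after PH no member passed the test between Smo (−) and Smo (+) hepatocytes with edgeR, where 0.125% of all genes were called, 0.0366% higher and 0.0879% lower. At an unadjusted p below 0.05 there were 2 members with edgeR, 1 with DESeq2 and 2 with limma-voom, and neither DESeq2 nor limma-voom called any member after adjustment. The median log2 fold change was 0.07 over the members and 0.00 over all genes. Hnrnpa1 had 96.1 and 94.1 CPM in Smo (−) PH, against 70.0 CPM in Smo (+) PH (0.44, adjusted p = 0.835). Of the kinases, none of which passed the test, Clk1 had 21.6 and 18.4 CPM in Smo (−) PH, against 18.9 in Smo (+) PH, Clk2 12.6 and 12.2 against 11.6, Clk3 20.0 and 21.8 against 23.3, and Clk4 18.2 and 16.4 against 15.5. With 1 Smo (+) PH library these values do not show that the groups were alike.

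Other genes of the splicing pathway were counted in the same fits, from lists given by name. Over all genes the share called was 37.6% in old PH against old (median 0.08), 34.2% in young PH against young (−0.01), 3.26% for the difference between responses (0.08), and 63% in old against young (−0.05). Among 30 SR-related proteins and SR protein kinases, 23 rose after PH in old hepatocytes (median 0.57), against 6 higher and 2 lower in young hepatocytes (median 0.03), and 10 of the 30 passed the test for the difference between the responses, each more positive in old hepatocytes. They included Srpk2, a kinase of SR proteins (0.73 ± 0.15, adjusted p = 0.0243), Arglu1, an arginine- and glutamate-rich splicing cofactor (1.03 ± 0.21, adjusted p = 0.0244), and the spliceosomal kinase Prpf4b (1.05 ± 0.22, adjusted p = 0.0265). Tra2b, which activates exons as SR proteins do (1.17 ± 0.14, adjusted p = 2.92e-05), and Srpk1 (0.86 ± 0.11, adjusted p = 4.48e-05) rose after PH in old hepatocytes. In old against young hepatocytes without PH, 1 was higher and 21 were lower, with a median of −0.91, where Srrm2, a scaffold of nuclear speckles, differed by −2.79 ± 0.13, adjusted p = 6.1e-09.

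Of 45 other splicing regulators, 28 rose and 1 fell after PH in old hepatocytes, against 17 and 2 in young ones, and without PH 9 were higher and 28 lower in old than in young hepatocytes (median −0.48). Of 69 core spliceosome genes, 41 rose and 2 fell in old hepatocytes after PH, against 31 and 5 in young ones. In Smo (−) hepatocytes 18 of the 69 rose and 3 fell after PH, with a median of 0.18. Over all genes 30.2% were called there, 16% higher and 14.2% lower, with a median of 0.01. The Sm protein gene Snrpd1 changed in this comparison by 1.73 ± 0.25, adjusted p = 0.000973. Without PH, 36 of these 69 were higher and 19 lower in old than in young hepatocytes, with a median of 0.31. Of 19 nonsense-mediated decay genes, 10 rose and 1 fell in old hepatocytes after PH, against 4 and 1 in young ones, and without PH 6 were higher and 8 lower in old than in young hepatocytes (median −0.19).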

How the data were processed

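The deposited tables hold raw read counts per gene. According to the study's methods and the submitters' processing notes, the authors trimmed paired reads with Trim Galore, aligned them to mm10 with STAR 2.5.0c, removed duplicates with Picard and counted reads per gene with HTSeq; the annotation release and the strand setting are not given in the sources used here. Members whose exons overlap a gene on the other strand are therefore less certain. Gene names were taken by Ensembl identifier, since those of the second table matched GENCODE M21 for 1.53% of genes, against 97.1% in the first.

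Each table was fitted once with edgeR 4.0.16 in R 4.3.3 (TMM factors, filterByExpr at its minimum count of 10 and total of 15, quasi-likelihood F test, two-sided), over 14554 genes of 12 libraries and 13654 genes of 6. P-values were adjusted by Benjamini-Hochberg over all genes tested, and a gene was called at an adjusted p below 0.05. In the second fit the lone Smo (+) libraries are assumed to vary like the Smo (−) pairs. CPM are TMM-scaled, and tables were compared only within themselves. Replicates of a group differed by more than sampling noise, with a mean chi-square per gene of 26.2 or more. Each library is taken as 1 mouse, as the study describes it; where this does not hold, p-values measure only the spread between these samples.

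DESeq2 1.42.0, limma-voom (limma 3.58.1), other size factors, other filters, a gene-length correction, a replicate block, smaller fits and leaving out each library were tried as alternatives. The scripts were tested on simulated data. All 34 tested members may be named; values in every library are given for the 4 CLK kinases, for up to 6 members per comparison and direction with the smallest adjusted p and no overlap between groups, and for members called in the difference between responses, and up to 3 genes per direction of the other lists are named. The naming rule uses no measured value, but it and the other lists were chosen with earlier results of these data known.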

Additional observations from a re-analysis of the deposited data

Results flagged for a closer look

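Members whose response to PH differed between old and young hepatocytes by the test of the difference itself are given here, as the old log2 fold change minus the young one. The difference was 1.39 for Hnrnph1, 1.08 for Hnrnph3, 1.06 for Srsf5, 0.81 for Hnrnpu and 0.93 for Srsf3 (edgeR, adjusted p between 0.0191 and 0.0496). In Hnrnph1, Srsf3, Hnrnph3 and Hnrnpu the old response was a rise. In Srsf5 it was 0.08 in old hepatocytes and −0.98 in young ones.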

How the results depend on the processing

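Of the counts of called members, 107 recomputed values were within 1.5 times the count given and 17 were not. For the difference between responses, where 5 members were called, DESeq2 gave 9, upper-quartile factors 2 and the gene-length correction 2, and leaving out 1 library gave 0 to 9. For Smo (−) PH against Smo (−), with 14 called, additive terms for virus and time gave 9 and leaving out 1 library 5 to 18, and a fit without both Smo (+) libraries, chosen after seeing the data, gave 14. For Smo (−) against Smo (+), with 10 called, additive terms gave 0 and leaving out 1 library 9 to 16. Leaving out 1 library gave 12 to 17 members in young PH against young, 22 to 27 in old PH against old, 23 to 24 in old against young and 25 to 28 in old PH against young PH.

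Of the values of single members, 3957 stayed on their side of the threshold, with values near 0 that were called in neither setting free to change sign, 205 lost a call and 51 gained one in the same direction. In 3 a member that was not called gained a call with the opposite sign under the gene-length correction: Hnrnpll (0.83, adjusted p = 0.000112) and Hnrnpr (1.64, 1.03e-07) in old against young, and Srsf11 (0.49, 0.0338) in old PH against young PH. The cause of these changes was not tested.

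The replicate numbers did not pair the libraries: the correlation of same-numbered libraries in their deviations from the group means was −0.18 to 0.279 over 12 pairs, and 5 correlated best with their own number. With a replicate block the called members numbered 18 in young PH against young, 27 in old PH against old, 4 in the difference between responses, 23 in old against young, 27 in old PH against young PH, 16 in Smo (−) PH against Smo (−), 10 in Smo (−) against Smo (+) and 0 in Smo (−) PH against Smo (+) PH.

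Srsf12 was too low at this depth to be compared. The Smo (+) groups of 1 library, the 2 residual degrees of freedom of the second table, and the difference in composition between old and young libraries limit what the comparisons of these members can show.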
